A study of Mus musculus with 12 samples.

Results

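Mouse D3 embryonic stem cells kept for 7 days without leukemia inhibitory factor (LIF) were compared with D3 cells kept for 7 days with LIF, neither culture holding lithium. The comparison was defined by the array labels and by no measured value, and it took 6 of the 12 expression arrays of the series: 3 LIF-free arrays and 3 LIF arrays, numbered 1 to 3 in each condition. Both conditions had the same cell line and a standard stem cell medium with 15% serum, and the LIF condition received LIF at 1000 units per ml. D3 is an established line, so these arrays describe this line and not several genetic backgrounds. The other 6 arrays held the same withdrawal in medium with lithium (50 nM in the labels) and are set beside it at the end. The labels call the arrays biological replicates without naming separate cultures, while the design text speaks of 3 independent experiments behind each replicate, so the p-values may measure a spread that is partly technical.

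LIF binds a receptor made of LIFR and gp130, which activates the kinase JAK and the transcription factor STAT3, and STAT3 in turn raises self-renewal genes such as Klf4 and its own inhibitor Socs3. Without LIF, BMPs of the serum and the cells' own FGF4 act on stem cells that can leave the naive state, form epithelium and then turn to embryonic or extraembryonic lineages. Stem cells in LIF are also known for sporadic transcription of genes of the early embryo and the germ line, and for low surface levels of class I antigen molecules.

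Values are MAS5 signals per probe set on a linear scale, and a log2 change is the LIF-free mean minus the LIF mean of log2 signal, with its standard error. A gene was called, and is said to have risen or fallen, where its Benjamini-Hochberg adjusted p in limma, with the replicate number as a block, was under 0.05. Wherever 3 values are given for a condition they are replicates 1, 2 and 3. Where a call was lost without the block, after centring each array on its median, or in a fit that left out 1 of the 6 arrays, the adjusted p of that fit follows the gene's values. For a list, counts under those fits are given where the count of all calls, or a count of at least 4 in a direction, moved by over 1.5 times. Genes were named by a rule, and those introduced with "in addition" were chosen after their values were seen. The median signal of the 6 arrays was 13.03 to 17.5 and their log2 signals correlated at 0.873 to 0.963 across probe sets. RNA of a whole culture cannot tell fewer cells of a type from less RNA per cell, which holds for every result below.

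The labels were first checked against known genes. The stem cell markers Pou5f1, Nanog, Sox2, Zfp42, Utf1 and Tdgf1 summed to signals of 5079, 5570 and 6756 in LIF-free arrays, against 11530, 13970 and 17410 in LIF arrays. Klf4, the STAT3 target that holds the naive network, had signals of 252, 322 and 389 without LIF and 1075, 1739.7 and 1778 with LIF (log2 change -2.24 ± 0.11, adjusted p = 4.5e-07). Both sets of values were present in both conditions and did not overlap between them, so the LIF-free cultures still held stem cell transcripts at lower levels. Pou5f1 (log2 change -1.44 ± 0.15, adjusted p = 4.4e-05), Sox2 (log2 change -1.05 ± 0.16, adjusted p = 6.0e-04) and Nanog (log2 change -0.83 ± 0.16, adjusted p = 0.003, but 0.11 without the block and 0.086 after centring), the core factors of the pluripotency network, fell.

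LIF replicate 1 lay nearer to the LIF-free arrays than the other LIF arrays did. Among the 1870 genes that rose on withdrawal in the lithium arrays, which share no array with this comparison, LIF replicate 1 had the highest of the 3 LIF values for 1282 genes, against 166 for replicate 2 and 422 for replicate 3. Among the 1493 genes that fell there, it had the lowest LIF value for 910 genes, against 232 for replicate 2 and 351 for replicate 3. Replicate 1 of the LIF-free condition deviated the same way, by less. It had the highest LIF-free value for 725 of the genes that rose there, against 649 and 496 for replicates 2 and 3. For the genes that fell there, it had the lowest LIF-free value in 800, against 421 and 272. The signal of the 18S RNA control was 1461, 1007 and 1079 in LIF-free arrays, against 1364, 528 and 86.0 in LIF arrays, and its part in the results was not tested. Without LIF replicate 1 the number of called probe sets was 5450, against 5260 with it.

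Withdrawal of LIF moved a large share of the tested genes in both directions. Of 12737 named genes tested, 1622 rose (12.7%) and 1390 fell (10.9%), 23.6% in all. The change was at least 2-fold for 652 of the genes that rose and for 587 of those that fell, and at least 8-fold for 24 and 13. All 3 pairs moved the same way for 1612 of the genes that rose and for 1383 of those that fell. The 3 LIF-free values lay wholly above or below the 3 LIF values for 4052 genes (31.8%), called or not. Among the 3012 called genes, 2552 did not overlap, and the genes named from lists below were picked by smallest p. Lack of overlap in a called gene is therefore a description and no further test.

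The size of the list depended on the replicate block and on single arrays. Without the block 892 genes rose and 650 fell. Of all probe sets 5260 were called (19.5%), 2714 higher (10%) and 2546 lower (9.42%). The number was 2916 with LIF-free replicate 2 left out, 2805 with LIF-free replicate 3 left out and 3375 with LIF replicate 2 left out. Centring every array on its median, which added 0.19 to every log2 change, left 2801 probe sets higher and 1032 lower, so that 73.1% of calls were higher, against 51.6% on the authors' scale. No called probe set changed sign under centring or quantile normalisation. A set of 1155 genes (9.07%), 641 higher and 514 lower, was called with and without the block and in each fit that left out 1 of the 6 arrays, and did not overlap between conditions.

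**Figure D1:**
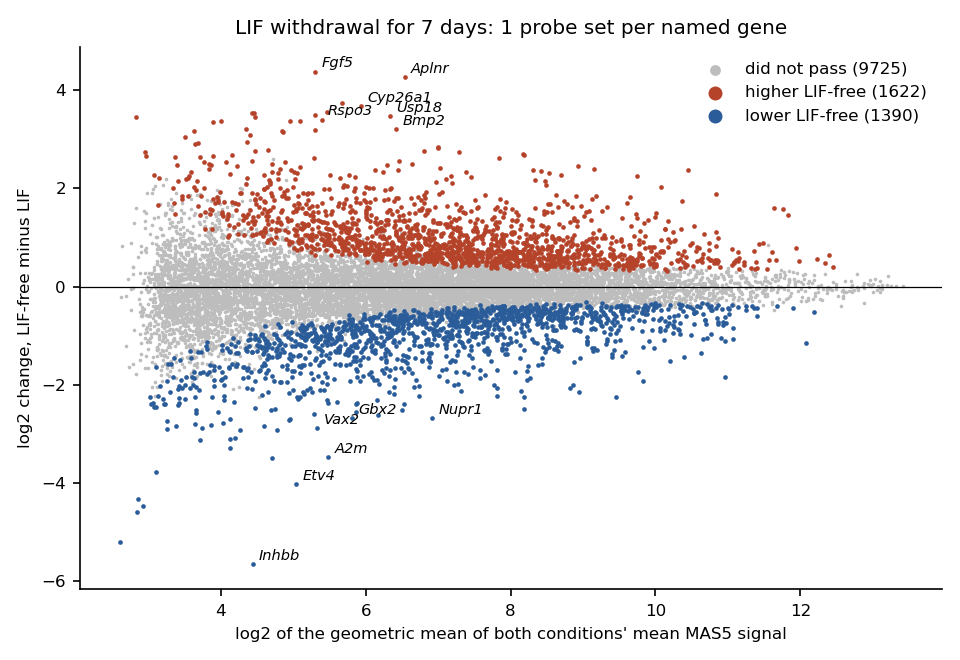
Log2 change on withdrawal (LIF-free minus LIF) against the log2 mean signal of both conditions, 1 point for each of 12737 named genes. The 1622 genes that rose and the 1390 that fell reach down to changes under 2-fold at bright signals, while dim genes needed larger changes to be called.

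From those 1155 genes, the 15 largest rises and the 15 largest falls with a mean signal of at least 100 in the higher condition are described first. They were picked for their size from genes without overlap between conditions, so size and lack of overlap describe them and are no further test. Several of the rises encode ligands or receptors. Fgf5, the FGF ligand that marks the primed epiblast, read 114, 108 and 143 in the LIF-free arrays and 32.6, 4.16 and 1.44 in the LIF arrays (log2 change 4.38 ± 0.94, adjusted p = 0.0053, median over its 2 tested probe sets 3.72). Aplnr, the apelin receptor of mesodermal and vascular precursors, gave signals of 424, 304 and 163 in LIF-free arrays, against 70.6, 2.96 and 13.9 in LIF arrays (log2 change 4.27 ± 0.79, adjusted p = 0.0022, median over its 2 tested probe sets 2.55). Both were lower in LIF replicates 2 and 3 than in LIF replicate 1, with no overlap between conditions. Rspo3, a secreted enhancer of Wnt signalling, had signals of 148, 100.3 and 60.02 without LIF and 42.9, 3.50 and 5.03 with LIF (log2 change 3.40 ± 0.55, adjusted p = 8.0e-04). Wls, the carrier that Wnt ligands need for secretion, read 601, 737 and 618 in the LIF-free arrays and 254, 75.1 and 52.3 in the LIF arrays (log2 change 2.70 ± 0.35, adjusted p = 1.9e-04). Tnfrsf19, a receptor of the tumour necrosis factor family, gave signals of 194, 185 and 179 in LIF-free arrays, against 85.5, 15.3 and 24.02 in LIF arrays (log2 change 2.56 ± 0.41, adjusted p = 8.0e-04, median over its 3 tested probe sets 1.72). None of the 3 overlapped between conditions, and LIF replicate 1 was again the highest of the LIF arrays for each. Some LIF values of Fgf5, Aplnr and Rspo3 lay near background, under the filter signal of 7.52. The size of their rises is therefore uncertain.

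Further rises had other roles. Plac1, a placental membrane protein, had signals of 351, 292 and 300.0 without LIF and 95.4, 22.7 and 38.1 with LIF (log2 change 2.85 ± 0.27, adjusted p = 2.7e-05). Capn6, a calpain without protease activity that stabilises microtubules, read 276, 253 and 239 in the LIF-free arrays and 98.9, 21.1 and 25.2 in the LIF arrays (log2 change 2.77 ± 0.35, adjusted p = 1.6e-04). Neither overlapped between conditions. Kitl, the ligand of the receptor Kit, gave signals of 316, 349 and 208 in LIF-free arrays, against 121, 27.1 and 19.6 in LIF arrays (log2 change 2.83 ± 0.34, adjusted p = 1.2e-04, median over its 4 tested probe sets 1.42). Pkdcc, a secreted tyrosine kinase of limb and skeletal growth, had signals of 348, 402 and 342 without LIF and 124, 52.8 and 24.7 with LIF (log2 change 2.73 ± 0.32, adjusted p = 1.1e-04). Slc40a1, the iron exporter ferroportin, read 555, 684 and 769 in the LIF-free arrays and 247, 75.5 and 60.4 in the LIF arrays (log2 change 2.67 ± 0.33, adjusted p = 1.5e-04). All 5 genes had LIF values in which replicate 1 was the highest. The other rises, Cyp26a1, Usp18, Bmp2, Psmb8 and Id3, are described with their gene groups.

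The largest falls had varied roles, from signalling to the cytoskeleton. Inhbb, the activin B subunit, gave signals of 2.21, 2.19 and 4.66 in LIF-free arrays, against 81.99, 155 and 229 in LIF arrays (log2 change -5.66 ± 0.51, adjusted p = 2.1e-05, median over its 2 tested probe sets -3.43). LIF-free values this low are near background, so the size of the fall is uncertain, while the LIF arrays all stood far above. Vax2, a homeodomain factor of the ventral eye, had signals of 6.33, 15.8 and 23.4 without LIF and 67.3, 79.7 and 174 with LIF (log2 change -2.88 ± 0.33, adjusted p = 9.2e-05). Gbx2, a homeodomain factor that acts downstream of STAT3 in stem cells, read 23.7, 19.01 and 23.9 in the LIF-free arrays and 167, 123 and 137 in the LIF arrays (log2 change -2.67 ± 0.35, adjusted p = 2.0e-04). Mapt, the microtubule protein tau, gave signals of 19.9, 18.2 and 24.1 in LIF-free arrays, against 67.00, 97.8 and 175 in LIF arrays (log2 change -2.35 ± 0.25, adjusted p = 5.6e-05, median over its 3 tested probe sets -1.42). In these 4 genes every LIF array exceeded every LIF-free array by a wide margin.

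A2m, a secreted protease inhibitor induced by STAT3 in liver, had signals of 11.3, 23.5 and 7.23 without LIF and 101, 188 and 138 with LIF (log2 change -3.47 ± 0.31, adjusted p = 2.0e-05). Mras, a Ras-like GTPase, read 23.6, 29.9 and 32.7 in the LIF-free arrays and 131, 167 and 241 in the LIF arrays (log2 change -2.61 ± 0.29, adjusted p = 7.9e-05, median over its 2 tested probe sets -2.06). Jam2, an adhesion molecule of tight junctions, gave signals of 94.95, 115 and 151 in LIF-free arrays, against 443, 705 and 962 in LIF arrays (log2 change -2.50 ± 0.14, adjusted p = 8.0e-07). Jam2 fell in all 3 pairs, without overlap. Calml4, a calmodulin-like protein, had signals of 15.2, 32.3 and 25.3 without LIF and 98.7, 183 and 139 with LIF (log2 change -2.55 ± 0.24, adjusted p = 2.6e-05). Nphs1, the adhesion protein nephrin of the kidney filter, read 27.9, 21.4 and 26.8 in the LIF-free arrays and 119, 124 and 156 in the LIF arrays (log2 change -2.39 ± 0.24, adjusted p = 3.7e-05). Ndufa4l2, a hypoxia-induced relative of a respiratory chain subunit, gave signals of 18.6, 30.9 and 59.6 in LIF-free arrays, against 59.7, 181 and 462 in LIF arrays (log2 change -2.40 ± 0.31, adjusted p = 1.9e-04). For Ndufa4l2, LIF-free replicate 3 and LIF replicate 1 lay almost at the same signal. In 2 further genes a single LIF array stood apart. Tle5, a co-repressor that lacks the repeats of its family, had signals of 19.4, 32.96 and 41.4 without LIF and 62.1, 132 and 599 with LIF (log2 change -2.51 ± 0.43, adjusted p = 0.0012). Septin1, a septin of the cytoskeleton, read 15.9, 16.6 and 17.3 in the LIF-free arrays and 53.2, 44.1 and 262 in the LIF arrays (log2 change -2.36 ± 0.53, adjusted p = 0.0074). In both genes LIF replicate 3 was several times as bright as the other LIF arrays.

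**Figure D2:**
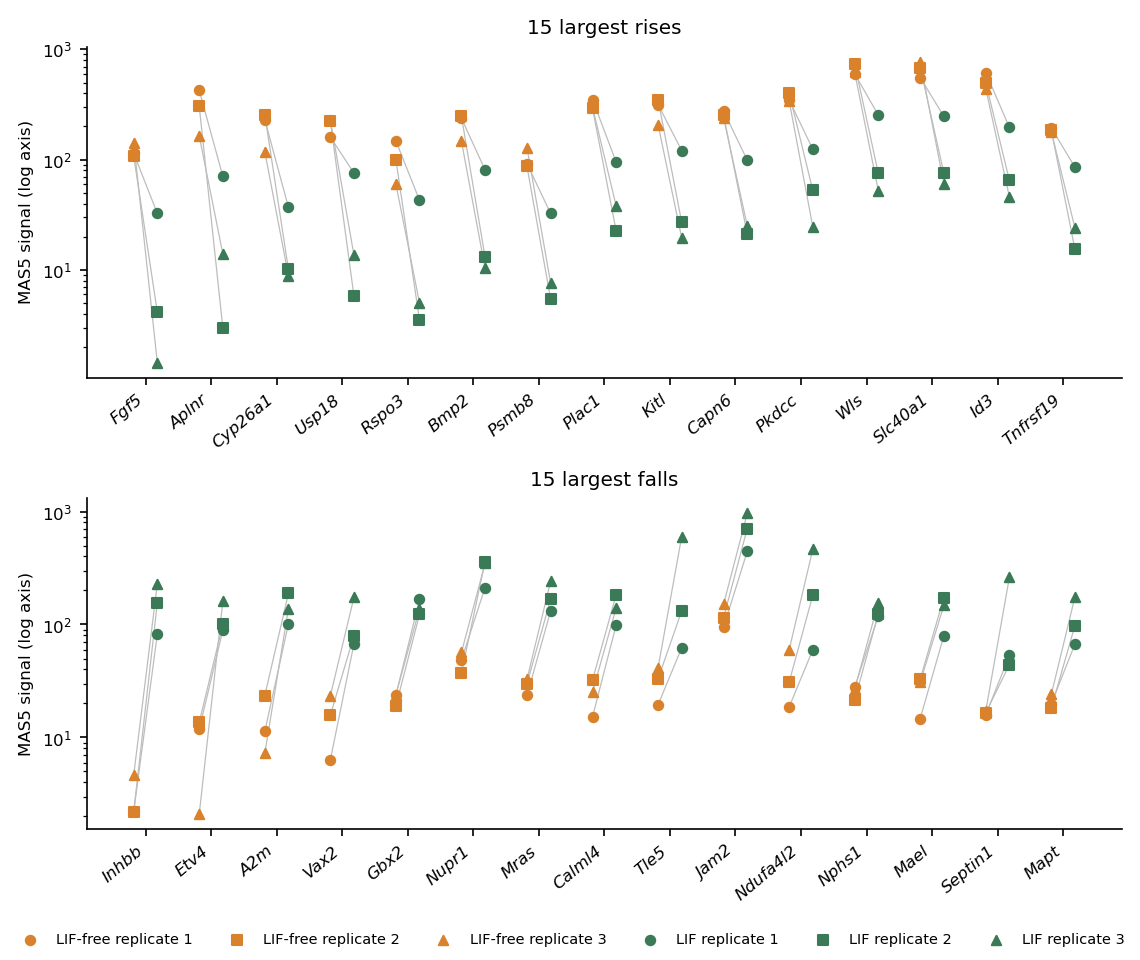
MAS5 signal (log axis) of the 15 largest rises and 15 largest falls in each array, LIF-free left and LIF right of each gene, with lines joining equal replicate numbers. In the rises LIF replicate 1 (green circle) is the highest LIF array of each gene shown, and in Tle5 and Septin1 LIF replicate 3 stands above the other LIF arrays.

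The genes were then grouped in 37 lists of pathways, complexes and cell structures, to be read against the shares of all named genes that rose (12.7%) and fell (10.9%) and against their median log2 change of -0.03, which centring turned to 0.17. The plot of all lists shows how unevenly the calls were spread. Genes of the actin cytoskeleton and of epithelial junctions had the highest shares of members that rose, and germ cell genes and the amino acid response the highest shares that fell.

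**Figure D3:**
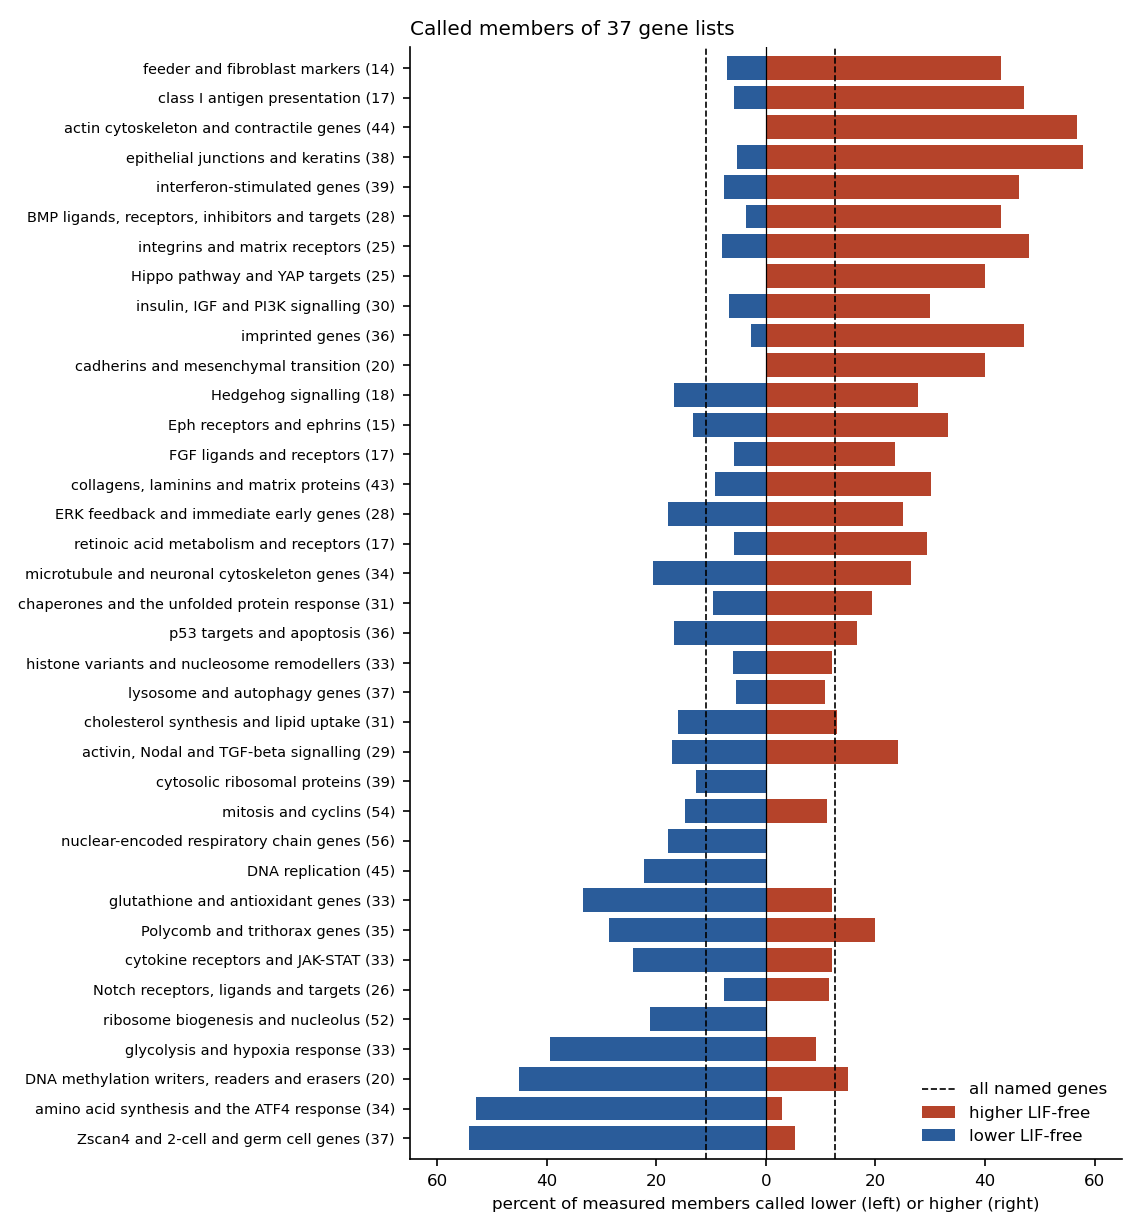
Percent of the measured members of each list that rose (right) or fell (left) on withdrawal, with the number measured in brackets and dashed lines at 12.7% and 10.9% for all named genes. Lists are ordered by their median log2 change, which ran from 1.06 for feeder and fibroblast markers to -1.15 for Zscan4, 2-cell and germ cell genes. The feeder median was 0.17 under a stricter filter on signal.

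In the LIF pathway itself, the STAT3 targets Socs3 and Pim3 fell. Of the 33 members measured, 4 rose and 8 fell, the other 21 were not called, and the median log2 change was -0.21. Socs3, the feedback inhibitor that STAT3 induces, gave signals of 66.5, 69.3 and 82.2 in LIF-free arrays, against 208, 268 and 573 in LIF arrays (log2 change -2.13 ± 0.23, adjusted p = 6.7e-05). Pim3, a STAT3-induced kinase, had signals of 177, 268 and 264 without LIF and 348, 431 and 918 with LIF (log2 change -1.15 ± 0.19, adjusted p = 8.4e-04, but 0.057 without the block, median over its 3 tested probe sets -0.41). Stat6, the factor of interleukin signalling, read 89.5, 124 and 136 in the LIF-free arrays and 135, 190.0 and 389.8 in the LIF arrays (log2 change -0.91 ± 0.18, adjusted p = 0.0037, but 0.13 without the block). Socs3 and Pim3 did not overlap between conditions, whereas Stat6 did. Ptpn11, the phosphatase that joins gp130 to Ras, gave signals of 549.7, 471 and 471 in LIF-free arrays, against 324, 283 and 253 in LIF arrays (log2 change 0.80 ± 0.11, adjusted p = 2.8e-04, median over its 3 tested probe sets 0.25). In addition, the receptor Lifr fell (log2 change -0.54 ± 0.12, adjusted p = 0.0073, but 0.23 without the block, 0.29 after centring and 0.057 without LIF-free replicate 3) and Stat3 was not called (log2 change -0.44 ± 0.21, adjusted p = 0.16). In the cytokine list the counts higher and lower were 3 and 3 without the block, 4 and 5 after centring, 2 and 5 with LIF-free replicate 2 left out, 1 and 5 with LIF-free replicate 3 left out and 1 and 7 with LIF replicate 2 left out.

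The promoter of Socs3 is shown because this gene is a known direct target of STAT3. STAT dimers bind TTCNNNGAA, and a search of both strands of RefSeq promoter windows (250 bases before to 50 after the start, assembly GRCm38.p6) found this motif in 8.05% of the 10289 tested genes that had a window, in 8.08% of those that rose, in 6.35% of those that fell and in 8.3% of all windows. The Socs3 stretch at chr11:117969472-117969560 on the minus strand, with the motif in capitals beginning at base -154 from the start, reads 5′ to 3′ as follows.
Socs3: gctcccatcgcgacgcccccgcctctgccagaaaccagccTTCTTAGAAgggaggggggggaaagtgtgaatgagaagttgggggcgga
A match to the letters describes the window and is not evidence of binding in these cells. No test was made of these shares.

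Among FGF ligands and receptors, Fgf4 fell and 4 members rose, with Fgf5 and Fgf8 among them. The share called was 29.4%, beside 23.6% of all named genes. Of the 17 members measured, 4 rose and 1 fell, the other 12 were not called, and the median log2 change was 0.20. Fgf4, the autocrine FGF of the inner cell mass, had signals of 81.3, 154 and 168 without LIF and 353, 679.8 and 735 with LIF (log2 change -2.13 ± 0.15, adjusted p = 6.6e-06). Fgfr2, the FGF receptor of early trophoblast and endoderm, read 107, 137 and 106 in the LIF-free arrays and 68.3, 32.9 and 51.2 in the LIF arrays (log2 change 1.25 ± 0.24, adjusted p = 0.003). Fgf13, which binds sodium channels and is not secreted, gave signals of 88.04, 76.1 and 66.5 in LIF-free arrays, against 60.8, 34.6 and 20.2 in LIF arrays (log2 change 1.13 ± 0.26, adjusted p = 0.0089, but 0.078 without the block and 0.059 without LIF-free replicate 3). In addition, Fgf8, a ligand of the gastrulating embryo, had signals of 49.1, 57.2 and 58.9 without LIF and 14.8, 3.74 and 3.82 with LIF (log2 change 3.20 ± 0.78, adjusted p = 0.012, but up to 0.076 in 3 of the 6 fits that left out an array). All 4 genes kept their conditions apart. In the FGF list the counts higher and lower were 2 and 1 with LIF-free replicate 3 left out.

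Genes of ERK feedback and the immediate early response moved both ways. Of the 28 members measured, 7 rose and 5 fell, the other 16 were not called, and the median log2 change was 0.16. Etv4, a PEA3-family factor induced by FGF, read 11.9, 13.7 and 2.11 in the LIF-free arrays and 89.3, 100.4 and 161 in the LIF arrays (log2 change -4.01 ± 0.57, adjusted p = 3.7e-04, median over its 2 tested probe sets -3.00). Its relative Etv5 gave signals of 215, 259 and 214 in LIF-free arrays, against 581, 431 and 671 in LIF arrays (log2 change -1.27 ± 0.22, adjusted p = 0.0013). Spry4, the Sprouty inhibitor of ERK, had signals of 58.1, 38.5 and 35.1 without LIF and 214, 118 and 155 with LIF (log2 change -1.88 ± 0.24, adjusted p = 1.7e-04). These 3 genes fell without overlap. Jun, the AP-1 subunit, read 188, 337 and 167 in the LIF-free arrays and 98.1, 113 and 49.6 in the LIF arrays (log2 change 1.42 ± 0.22, adjusted p = 7.1e-04, but 0.084 without the block). In the ERK list the counts higher and lower were 3 and 5 without the block, 4 and 4 with LIF-free replicate 3 left out and 3 and 5 with LIF replicate 2 left out, and the median was -0.14 with LIF replicate 2 left out.

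BMP signalling genes rose more often than they fell. Of the 28 members measured, 12 rose and 1 fell, the other 15 were not called, and the median log2 change was 0.60. Bmp2, a ligand of the BMP receptors, gave signals of 238, 247 and 147 in LIF-free arrays, against 80.9, 13.1 and 10.4 in LIF arrays (log2 change 3.21 ± 0.42, adjusted p = 2.2e-04). Id3 and Id2 are inhibitors of differentiation that SMADs induce directly. Id3 had signals of 617, 497 and 439.5 without LIF and 196, 64.9 and 45.8 with LIF (log2 change 2.62 ± 0.24, adjusted p = 2.0e-05). Id2 read 862, 928 and 819 in the LIF-free arrays and 447, 291 and 218 in the LIF arrays (log2 change 1.51 ± 0.18, adjusted p = 1.1e-04). Msx2, a homeodomain factor induced by BMP, gave signals of 269, 378 and 247 in LIF-free arrays, against 120.5, 33.04 and 58.7 in LIF arrays (log2 change 2.25 ± 0.31, adjusted p = 3.2e-04, median over its 2 tested probe sets 1.37). None of the 4 overlapped between conditions, and LIF replicate 1 was the highest LIF array for each. In addition, Bmp4 (log2 change 0.56 ± 0.22, adjusted p = 0.099) and Id1 (log2 change 0.58 ± 0.21, adjusted p = 0.069) were not called. In the BMP list the counts higher and lower were 7 and 1 without the block and 8 and 0 with LIF-free replicate 2 left out.

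Activin and Nodal genes moved in both directions. Of the 29 members measured, 7 rose and 5 fell, the other 17 were not called, and the median log2 change was -0.03. Tdgf1, the Nodal co-receptor Cripto, had signals of 1019.8, 935 and 1199 without LIF and 3209, 3688 and 4513 with LIF (log2 change -1.85 ± 0.15, adjusted p = 1.4e-05). Its paralog Cfc1, or Cryptic, read 153, 145 and 102 in the LIF-free arrays and 50.9, 43.9 and 43.1 in the LIF arrays (log2 change 1.52 ± 0.18, adjusted p = 1.1e-04). Thus the pair of co-receptors moved in opposite directions, each without overlap. Tgfbr3, the co-receptor betaglycan, gave signals of 152, 164 and 113 in LIF-free arrays, against 68.5, 28.6 and 35.3 in LIF arrays (log2 change 1.78 ± 0.25, adjusted p = 3.1e-04). With Inhbb they make up the 4 members of the list named by their p. In the activin list the counts higher and lower were 8 and 3 after centring.

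Among retinoic acid genes, Rdh10, Crabp2 and Cyp26a1 rose and most members were not called. Of the 17 members measured, 5 rose and 1 fell, the other 11 were not called, and the median log2 change was 0.11. Rdh10, the enzyme that makes retinal, had signals of 198, 204 and 203 without LIF and 110.2, 82.4 and 61.5 with LIF (log2 change 1.29 ± 0.20, adjusted p = 6.0e-04). Crabp2, which carries retinoic acid to its receptors, read 144, 148 and 161 in the LIF-free arrays and 65.3, 41.5 and 33.3 in the LIF arrays (log2 change 1.75 ± 0.23, adjusted p = 2.2e-04). Cyp26a1, the enzyme that degrades retinoic acid and is induced by it, gave signals of 231, 256 and 118 in LIF-free arrays, against 37.1, 10.2 and 8.88 in LIF arrays (log2 change 3.68 ± 0.36, adjusted p = 3.1e-05). These 3 genes rose without overlap, with Rdh10 almost equal in the 3 LIF-free arrays. Stra8, the retinoic acid target of the germ line, had signals of 15.5, 22.2 and 13.4 without LIF and 38.6, 151 and 68.98 with LIF (log2 change -2.15 ± 0.28, adjusted p = 2.3e-04), so this target moved against the others.

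Hedgehog genes moved both ways. Of the 18 members measured, 5 rose and 3 fell, the other 10 were not called, and the median log2 change was 0.27. Gas1 and Cdon are co-receptors of the Hedgehog ligand. Gas1 read 147, 227 and 105 in the LIF-free arrays and 59.00, 36.1 and 12.8 in the LIF arrays (log2 change 2.34 ± 0.35, adjusted p = 4.8e-04, median over its 2 tested probe sets 1.78). Cdon gave signals of 265, 344 and 305 in LIF-free arrays, against 168, 87.97 and 117 in LIF arrays (log2 change 1.34 ± 0.24, adjusted p = 0.0019). Gpc3, a glypican that restrains Hedgehog signalling, had signals of 699, 868 and 413 without LIF and 278, 188 and 145 with LIF (log2 change 1.68 ± 0.15, adjusted p = 2.2e-05). Gli2, a transcription factor of the pathway, read 99.8, 156 and 150.5 in the LIF-free arrays and 212, 288 and 268 in the LIF arrays (log2 change -0.94 ± 0.15, adjusted p = 9.7e-04). No condition overlapped with the other in these genes. In addition, Gli1 fell (log2 change -1.58 ± 0.34, adjusted p = 0.0058), the receptor Ptch1 fell (log2 change -0.56 ± 0.17, adjusted p = 0.036, but 0.079 without the block, 0.33 after centring and up to 0.16 in 5 of the 6 fits that left out an array) and Gli3 rose (log2 change 1.30 ± 0.24, adjusted p = 0.0019).

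Of Notch genes 19.2% were called, beside 23.6% of all named genes. Of the 26 members measured, 3 rose and 2 fell, the other 21 were not called, and the median log2 change was -0.21. Rbpj, the DNA-binding factor of the pathway, gave signals of 635, 747 and 774 in LIF-free arrays, against 1070.4, 1179 and 1234 in LIF arrays (log2 change -0.69 ± 0.11, adjusted p = 6.3e-04, but 0.1 after centring). Dtx1, a target and modifier of Notch, had signals of 65.1, 66.8 and 120.2 without LIF and 135, 209.9 and 417 with LIF (log2 change -1.50 ± 0.21, adjusted p = 3.4e-04). Notch2 read 432, 455 and 332 in the LIF-free arrays and 339.6, 158 and 89.99 in the LIF arrays (log2 change 1.25 ± 0.25, adjusted p = 0.003, but 0.11 without the block). Notch2 values overlapped between conditions, since LIF replicate 1 exceeded LIF-free replicate 3. Numb, an inhibitor of Notch, gave signals of 247, 239.5 and 184 in LIF-free arrays, against 162, 146 and 119 in LIF arrays (log2 change 0.65 ± 0.12, adjusted p = 0.0025). In the Notch list the counts higher and lower were 3 and 5 with LIF replicate 1 left out.

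Hippo pathway genes rose where they were called, angiomotins among them. Of the 25 members measured, 10 rose and 0 fell, the other 15 were not called, and the median log2 change was 0.45. Amot, which holds YAP at junctions, had signals of 1566, 1306 and 653 without LIF and 558, 145 and 115 with LIF (log2 change 2.39 ± 0.28, adjusted p = 1.2e-04, median over its 3 tested probe sets 1.66). Its relative Amotl1 read 403, 480.0 and 334 in the LIF-free arrays and 276, 198 and 180.5 in the LIF arrays (log2 change 0.90 ± 0.15, adjusted p = 8.6e-04). Frmd6, an upstream regulator, gave signals of 279, 333 and 249 in LIF-free arrays, against 163, 143 and 104 in LIF arrays (log2 change 1.09 ± 0.15, adjusted p = 3.1e-04). All 3 rose without overlap. Ptpn14, a phosphatase that binds YAP, had signals of 433, 371 and 309 without LIF and 271, 127 and 143 with LIF (log2 change 1.11 ± 0.18, adjusted p = 7.6e-04, median over its 3 tested probe sets 0.25). Its tested probe sets were called in opposite directions, so its direction rests on the brightest. In addition, Yap1 itself rose (log2 change 0.36 ± 0.11, adjusted p = 0.031, but 0.077 without the block, 0.081 after centring and up to 0.15 in 5 of the 6 fits that left out an array). In the Hippo list the counts higher and lower were 6 and 0 without the block.

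Insulin and growth factor genes moved both ways. Of the 30 members measured, 9 rose and 2 fell, the other 19 were not called, and the median log2 change was 0.42. Igf2, the fetal growth factor, read 3899.7, 3201 and 3007 in the LIF-free arrays and 1606, 521 and 874 in the LIF arrays (log2 change 1.89 ± 0.23, adjusted p = 1.5e-04). Irs1, the adaptor of the insulin receptor, gave signals of 113, 99.2 and 101 in LIF-free arrays, against 63.4, 19.09 and 14.1 in LIF arrays (log2 change 2.01 ± 0.36, adjusted p = 0.0018). Eras, a constitutively active Ras of stem cells, had signals of 385, 372 and 483 without LIF and 1068, 1110.0 and 1145 with LIF (log2 change -1.43 ± 0.14, adjusted p = 3.7e-05). Tcl1, a coactivator of AKT in stem cells, read 120.3, 146 and 170.1 in the LIF-free arrays and 407, 419 and 642 in the LIF arrays (log2 change -1.73 ± 0.21, adjusted p = 1.3e-04). For the 2 that rose and the 2 that fell there was no overlap. In the insulin list the counts higher and lower were 3 and 2 without the block, 3 and 2 with LIF-free replicate 2 left out, 4 and 2 with LIF-free replicate 3 left out and 3 and 2 with LIF replicate 2 left out.

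Among Eph receptors and ephrins the named ligands rose. Of the 15 members measured, 5 rose and 2 fell, the other 8 were not called, and the median log2 change was 0.25. Efna5, Efnb2 and Efna1 are ephrins, ligands that repel cells on contact. Efna5 gave signals of 197, 191 and 169.6 in LIF-free arrays, against 95.7, 51.5 and 46.5 in LIF arrays (log2 change 1.60 ± 0.24, adjusted p = 4.6e-04). Efnb2 had signals of 286, 414 and 282 without LIF and 156, 91.8 and 59.4 with LIF (log2 change 1.77 ± 0.41, adjusted p = 0.0084). Efna1 read 40.4, 72.5 and 62.1 in the LIF-free arrays and 22.5, 29.1 and 37.7 in the LIF arrays (log2 change 0.96 ± 0.23, adjusted p = 0.011, but 0.057 without the block and 0.084 without LIF-free replicate 2). Each ephrin kept its conditions apart. Epha2, a receptor for the A class, gave signals of 58.3, 67.8 and 46.8 in LIF-free arrays, against 119, 136 and 221 in LIF arrays (log2 change -1.42 ± 0.22, adjusted p = 7.0e-04). In the Eph list the counts higher and lower were 3 and 1 without the block, 2 and 1 with LIF-free replicate 2 left out and 3 and 2 with LIF replicate 2 left out.

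Genes of the actin cytoskeleton rose, and no member of their list fell. The list also holds annexins, S100a6, S100a10 and Lgals1. Of the 44 members measured, 25 rose and 0 fell, the other 19 were not called, and the median log2 change was 0.78. Lgals1, a lectin that binds matrix and membrane, had signals of 6720.3, 4719 and 6340.3 without LIF and 2777, 1495 and 1822 with LIF (log2 change 1.58 ± 0.13, adjusted p = 1.4e-05). S100a10, the partner of annexin A2 under the membrane, read 1460.0, 1287 and 1473 in the LIF-free arrays and 689.7, 400.1 and 458 in the LIF arrays (log2 change 1.48 ± 0.13, adjusted p = 2.0e-05). Tpm4, a tropomyosin that wraps actin filaments, gave signals of 2506, 2306 and 2253 in LIF-free arrays, against 1378, 983 and 1023 in LIF arrays (log2 change 1.08 ± 0.11, adjusted p = 3.7e-05). In every pair of these 3 genes the LIF-free array was the brighter, without overlap between conditions. Fhl1, a LIM protein of stress fibres, had signals of 1210.2, 1514 and 1390.1 without LIF and 695, 554 and 355 with LIF (log2 change 1.41 ± 0.18, adjusted p = 1.6e-04, median over its 2 tested probe sets 0.29). In addition, Tpm1 (log2 change 1.24 ± 0.17, adjusted p = 3.5e-04) and the annexin Anxa1 (log2 change 1.75 ± 0.24, adjusted p = 3.0e-04) also rose. The members that rose were Acta1, Cnn2, Tpm1, Tpm2, Tpm3, Tpm4, Myh9, Myh10, Cald1, Vcl, Zyx, Flna, Flnc, Actn1, Csrp1, Fhl1, Fhl2, Msn, Anxa1, Anxa2, Anxa3, Anxa5, S100a6, S100a10 and Lgals1. Of the 25 that rose, the call was lost without the block for Tpm3, Myh9, Zyx, Flna, Flnc, Fhl2 and Msn (adjusted p up to 0.12), after centring for Tpm3 and Msn (adjusted p up to 0.076) and in at least 1 fit that left out an array for Tpm3, Zyx, Flna, Fhl2 and Msn (adjusted p up to 0.25).

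In the list of keratins and junction proteins most called members rose alongside. Jam2, the tight junction molecule given above among the largest falls, is not a member of this list. Of the 38 members measured, 22 rose and 2 fell, the other 14 were not called, and the median log2 change was 0.75. Krt8, the type II keratin of simple epithelium, read 6180.5, 4876 and 5285 in the LIF-free arrays and 2469.5, 1380.2 and 1684 in the LIF arrays (log2 change 1.60 ± 0.14, adjusted p = 1.8e-05). Krt18, its type I partner, gave signals of 6465, 5196 and 6309.5 in LIF-free arrays, against 2707, 1757 and 2163 in LIF arrays (log2 change 1.46 ± 0.15, adjusted p = 3.4e-05). Krt19 had signals of 979, 1029.8 and 1046 without LIF and 412, 215 and 292 with LIF (log2 change 1.78 ± 0.20, adjusted p = 8.2e-05). Krt7 read 429, 527 and 526 in the LIF-free arrays and 209.7, 152 and 235 in the LIF arrays (log2 change 1.33 ± 0.18, adjusted p = 3.0e-04). In all 4 keratins every LIF-free array exceeded every LIF array, and the partners Krt8 and Krt18 had similar log2 changes. In addition, the junction protein desmoplakin (Dsp) gave signals of 1304, 979 and 619 in LIF-free arrays, against 642, 405 and 125 in LIF arrays (log2 change 1.53 ± 0.27, adjusted p = 0.0014, but 0.053 without the block). In addition, Tjp1, the tight junction scaffold, rose (log2 change 0.82 ± 0.14, adjusted p = 0.0013), and E-cadherin (Cdh1) rose by little (log2 change 0.37 ± 0.12, adjusted p = 0.039, but 0.087 without the block, 0.068 after centring and up to 0.19 in 5 of the 6 fits that left out an array). The members that rose were Krt7, Krt8, Krt18, Krt19, Cdh1, Cldn3, Cldn4, Cldn6, Cldn7, Tjp1, Ocln, F11r, Crb3, Pard6b, Dsp, Dsg2, Dsc2, Pkp2, Perp, Esrp1, Grhl2 and Prss8, and those that fell were Cldn9 and Grhl3. Of the 22 that rose, the call was lost without the block for Cdh1, Cldn4, Dsp, Dsg2 and Grhl2 (adjusted p up to 0.087), after centring for Cdh1 (adjusted p = 0.068) and in at least 1 fit that left out an array for Cdh1, Cldn4, Esrp1 and Grhl2 (adjusted p up to 0.19). Of the 2 that fell, the call was lost without the block for Cldn9 and Grhl3 (adjusted p up to 0.083), after centring for Cldn9 (adjusted p = 0.12) and in at least 1 fit that left out an array for Cldn9 (adjusted p = 0.14).

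Mesenchymal genes rose in part. Of the 20 members measured, 8 rose and 0 fell, the other 12 were not called, and the median log2 change was 0.36. Vim, the mesenchymal filament vimentin, had signals of 2256, 1559 and 1249 without LIF and 954, 536 and 379 with LIF (log2 change 1.50 ± 0.13, adjusted p = 1.9e-05). Mmp14, a membrane protease, read 231, 329.7 and 257 in the LIF-free arrays and 132, 99.9 and 178 in the LIF arrays (log2 change 1.02 ± 0.22, adjusted p = 0.0055). Neither overlapped. Cdh2, N-cadherin, gave signals of 384, 307 and 103 in LIF-free arrays, against 147, 25.2 and 21.9 in LIF arrays (log2 change 2.41 ± 0.35, adjusted p = 4.3e-04, but 0.077 without the block). Cdh11, a cadherin of mesenchyme, had signals of 241, 181 and 36.9 without LIF and 42.6, 3.21 and 4.84 with LIF (log2 change 3.75 ± 0.53, adjusted p = 3.5e-04, but 0.059 without the block). Both cadherins overlapped between conditions, because LIF-free replicate 3 was below LIF replicate 1. In addition, Snai2, a repressor of E-cadherin, read 66.4, 52.5 and 25.6 in the LIF-free arrays and 17.4, 11.6 and 7.19 in the LIF arrays (log2 change 1.98 ± 0.36, adjusted p = 0.002). In the cadherin list the counts higher and lower were 4 and 0 without the block.

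Matrix genes rose in part. Of the 43 members measured, 13 rose and 4 fell, the other 26 were not called, and the median log2 change was 0.18. Sparc, a secreted collagen-binding protein, gave signals of 2203, 2113 and 2667 in LIF-free arrays, against 1357, 1022 and 1383 in LIF arrays (log2 change 0.90 ± 0.14, adjusted p = 8.0e-04). Serpinh1, the collagen chaperone, had signals of 1185, 1129.8 and 1246 without LIF and 662, 443 and 655 with LIF (log2 change 1.04 ± 0.13, adjusted p = 1.3e-04). Timp2, an inhibitor of matrix proteases, read 277, 303 and 316 in the LIF-free arrays and 139.8, 121 and 139 in the LIF arrays (log2 change 1.17 ± 0.14, adjusted p = 1.3e-04). For all 3 the LIF-free arrays lay above the LIF arrays. Col5a1, a fibrillar collagen, gave signals of 219, 226 and 182 in LIF-free arrays, against 122, 48.5 and 53.05 in LIF arrays (log2 change 1.61 ± 0.26, adjusted p = 9.0e-04). In the matrix list the counts higher and lower were 5 and 1 without the block, 18 and 0 after centring, 6 and 2 with LIF-free replicate 2 left out, 8 and 1 with LIF-free replicate 3 left out, 14 and 2 with LIF replicate 1 left out and 8 and 2 with LIF replicate 2 left out.

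On the cell surface, of the 25 members measured, 12 rose and 2 fell, the other 11 were not called, and the median log2 change was 0.56. Gpc1 and Gpc4 are glypicans, which hold growth factors at the membrane. Gpc4 had signals of 438, 575 and 435 without LIF and 239, 222 and 158 with LIF (log2 change 1.24 ± 0.16, adjusted p = 2.3e-04). Gpc1 read 140.4, 107 and 158 in the LIF-free arrays and 62.4, 53.7 and 74.2 in the LIF arrays (log2 change 1.09 ± 0.15, adjusted p = 3.5e-04). Cd44, the hyaluronan receptor, gave signals of 102, 101 and 53.4 in LIF-free arrays, against 50.5, 16.96 and 5.55 in LIF arrays (log2 change 2.28 ± 0.33, adjusted p = 4.3e-04, but 0.072 without the block). In addition, the integrin chain Itgb1 rose (log2 change 0.92 ± 0.16, adjusted p = 0.0016). None of these 4 overlapped between conditions. In the integrin list the counts higher and lower were 6 and 0 without the block, 6 and 1 with LIF-free replicate 2 left out and 7 and 1 with LIF replicate 2 left out.

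Markers of feeder cells and fibroblasts moved beside these mesenchymal and matrix genes. Of the 20 markers, 14 were measured, and their signals summed to 671.5, 485.0 and 335.3 in LIF-free arrays, against 453.7, 206.4 and 266.4 in LIF arrays, so the sums overlapped. Of these, 6 rose and 1 fell, with a median log2 change of 1.06. Cxcl12, a chemokine of stromal cells, had signals of 94.4, 81.7 and 70.5 without LIF and 37.4, 4.62 and 13.7 with LIF (log2 change 2.61 ± 0.44, adjusted p = 0.0011). In addition, Col1a1, the main fibroblast collagen, read 25.5, 16.5 and 8.91 in the LIF-free arrays and 16.7, 1.31 and 1.95 in the LIF arrays (log2 change 2.15 ± 0.63, adjusted p = 0.029, but 0.15 without the block and up to 0.18 in 4 of the 6 fits that left out an array, median over its 2 tested probe sets 1.57). By contrast, Thy1, a surface marker of fibroblasts, moved the other way (log2 change -1.13 ± 0.35, adjusted p = 0.039, but 0.064 without the block, 0.08 after centring and up to 0.14 in 5 of the 6 fits that left out an array). The part of these cells in the results was not tested. In the feeder list the counts higher and lower were 2 and 0 without the block, 3 and 0 with LIF-free replicate 2 left out, 3 and 0 with LIF-free replicate 3 left out and 4 and 0 with LIF replicate 2 left out. A stricter filter on signal, at the 60th percentile, gave 1 and 0 with a median of 0.17. Adding a pseudocount of 16 gave a median of 0.51, so this median depended on dim probe sets.

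Microtubule and neuronal cytoskeleton genes moved both ways. Of the 34 members measured, 9 rose and 7 fell, the other 18 were not called, and the median log2 change was 0.10. Basp1 and Marcks are membrane-bound proteins that gather lipids and actin. Basp1 gave signals of 2974, 2589 and 2414 in LIF-free arrays, against 1760.4, 968 and 1067 in LIF arrays (log2 change 1.12 ± 0.13, adjusted p = 9.9e-05). Marcks had signals of 2138, 1809 and 1761 without LIF and 1365, 636 and 677 with LIF (log2 change 1.18 ± 0.15, adjusted p = 2.0e-04). Tubb2b, a tubulin of neurons, read 444, 551 and 510.4 in the LIF-free arrays and 947, 1029.8 and 1233 in the LIF arrays (log2 change -1.09 ± 0.13, adjusted p = 1.4e-04). None overlapped. In the microtubule list the counts higher and lower were 6 and 4 without the block, 9 and 4 after centring, 7 and 4 with LIF-free replicate 3 left out and 9 and 4 with LIF replicate 1 left out.

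**Figure D4:**
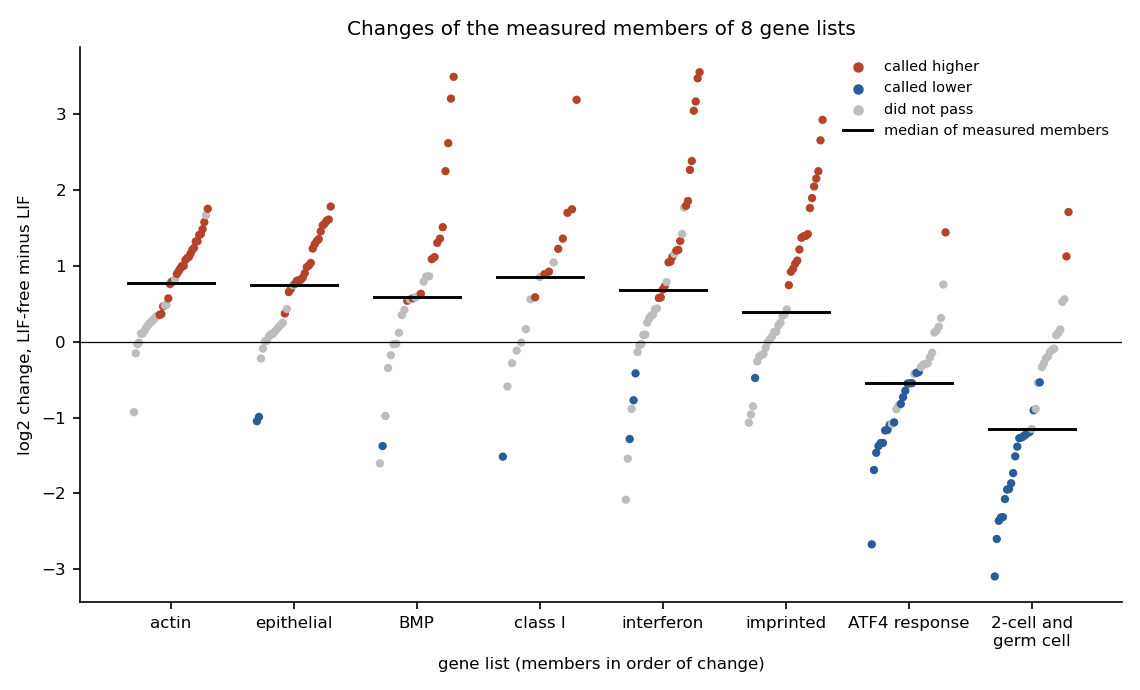
Log2 change (LIF-free minus LIF) of every measured member of 8 lists, in order of change, with the median of each list as a bar. The medians of the actin list (0.78) and the epithelial list (0.75) lie above 0 with few members below it, and those of the ATF4 response (-0.55) and the 2-cell and germ cell genes (-1.15) below it.

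Genes of DNA methylation fell more often than they rose. Of the 20 members measured, 3 rose and 9 fell, the other 8 were not called, and the median log2 change was -0.36. Tet2 and Tet1 oxidise methylcytosine. Tet2 gave signals of 67.6, 45.3 and 38.2 in LIF-free arrays, against 219, 168 and 228 in LIF arrays (log2 change -2.05 ± 0.18, adjusted p = 2.0e-05). Tet1 had signals of 237, 196 and 138 without LIF and 754, 429 and 554 with LIF (log2 change -1.60 ± 0.20, adjusted p = 1.6e-04). Both fell without overlap. Dnmt3l, the cofactor of de novo methylation, read 399.9, 262 and 426 in the LIF-free arrays and 808, 674 and 1084 in the LIF arrays (log2 change -1.24 ± 0.15, adjusted p = 1.3e-04). Zfp57, which guards methylation at imprinted loci, gave signals of 36.6, 51.1 and 26.7 in LIF-free arrays, against 126, 119.9 and 305 in LIF arrays (log2 change -2.18 ± 0.34, adjusted p = 6.2e-04). These also fell without overlap. In addition, the methyltransferase Dnmt3b rose (log2 change 0.85 ± 0.24, adjusted p = 0.025, but 0.12 without the block and up to 0.14 in 4 of the 6 fits that left out an array) and Trim28, the partner of Zfp57, fell (log2 change -0.75 ± 0.18, adjusted p = 0.0096, but 0.069 without the block, 0.068 after centring and 0.077 without LIF-free replicate 3). In the methylation list the counts higher and lower were 1 and 6 without the block and 2 and 5 after centring.

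Polycomb and trithorax genes moved both ways. Of the 35 members measured, 7 rose and 10 fell, the other 18 were not called, and the median log2 change was -0.21. Phc1, a subunit of PRC1, had signals of 522, 577 and 665 without LIF and 951, 1441 and 1844 with LIF (log2 change -1.22 ± 0.17, adjusted p = 2.7e-04). Yaf2, a subunit of variant PRC1, read 394, 347 and 329 in the LIF-free arrays and 184, 151 and 107 in the LIF arrays (log2 change 1.31 ± 0.14, adjusted p = 5.5e-05). These PRC1 subunits moved in opposite directions without overlap. Wdr5 and Ash2l are core subunits of the complexes that methylate lysine 4 of histone H3. Wdr5 gave signals of 425, 524 and 519 in LIF-free arrays, against 674, 1039 and 958 in LIF arrays (log2 change -0.85 ± 0.12, adjusted p = 3.1e-04, but 0.052 after centring). Ash2l had signals of 1061, 1126 and 1203 without LIF and 1518, 2161 and 2127 with LIF (log2 change -0.76 ± 0.11, adjusted p = 4.2e-04, but 0.056 after centring). In addition, the PRC2 subunits Jarid2 (log2 change -1.09 ± 0.16, adjusted p = 5.4e-04), Eed (log2 change -0.56 ± 0.12, adjusted p = 0.0045, but 0.29 after centring) and Suz12 (log2 change -0.49 ± 0.16, adjusted p = 0.043, but 0.081 without the block, 0.49 after centring and up to 0.19 in 5 of the 6 fits that left out an array) fell, while Ezh2, the catalytic subunit, was not called (log2 change -0.34 ± 0.12, adjusted p = 0.066). In the Polycomb list the counts higher and lower were 7 and 4 after centring and 4 and 8 with LIF-free replicate 3 left out.

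Histone variants and remodellers had 18.2% of members called, beside 23.6% of all named genes. Of the 33 members measured, 4 rose and 2 fell, the other 27 were not called, and the median log2 change was 0.06. Hmga2, an architectural protein of embryonic chromatin, read 1069, 935 and 279 in the LIF-free arrays and 358, 135 and 46.8 in the LIF arrays (log2 change 2.31 ± 0.33, adjusted p = 3.6e-04, but 0.051 without the block). Its values overlapped through LIF-free replicate 3. Arid3a, a factor of early trophoblast, gave signals of 137, 128 and 137 in LIF-free arrays, against 70.3, 68.5 and 81.7 in LIF arrays (log2 change 0.87 ± 0.17, adjusted p = 0.0028). Hmgn3, a nucleosome-binding protein, had signals of 194, 295 and 350.2 without LIF and 145, 131 and 87.6 with LIF (log2 change 1.20 ± 0.27, adjusted p = 0.0067, but 0.052 without LIF-free replicate 3). H2ax, the histone marked at DNA breaks, read 652, 889 and 887 in the LIF-free arrays and 753, 1492 and 1886 in the LIF arrays (log2 change -0.68 ± 0.16, adjusted p = 0.0083, but 0.17 without the block, 0.1 after centring and 0.055 without LIF-free replicate 3). In the histone list the counts higher and lower were 3 and 0 without the block and 2 and 0 with LIF-free replicate 3 left out.

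Amino acid synthesis and the ATF4 response fell broadly. Of the 34 members measured, 1 rose and 18 fell, the other 15 were not called, and the median log2 change was -0.55. Mthfd2, the mitochondrial folate enzyme, gave signals of 120.4, 131 and 129.9 in LIF-free arrays, against 277, 385 and 334 in LIF arrays (log2 change -1.37 ± 0.13, adjusted p = 2.7e-05). Psat1, of serine synthesis, had signals of 413, 615 and 422 without LIF and 1034, 1340.2 and 1242 with LIF (log2 change -1.34 ± 0.13, adjusted p = 2.7e-05). Cth, which makes cysteine, read 431, 499 and 411 in the LIF-free arrays and 915, 933 and 943 in the LIF arrays (log2 change -1.06 ± 0.13, adjusted p = 1.3e-04). In all 3 enzymes the LIF-free arrays lay close together and below every LIF array. Nupr1, a stress-induced chromatin protein, gave signals of 48.6, 37.2 and 56.6 in LIF-free arrays, against 212, 359 and 347 in LIF arrays (log2 change -2.67 ± 0.21, adjusted p = 1.4e-05). In addition, the serine enzyme Shmt2 (log2 change -1.69 ± 0.26, adjusted p = 6.0e-04), the amino acid carrier Slc7a5 (log2 change -1.16 ± 0.20, adjusted p = 0.0014) and Atf4 itself (log2 change -0.65 ± 0.14, adjusted p = 0.0055, but 0.15 after centring) fell. Atf3, a stress factor in the same list, moved the other way (log2 change 1.44 ± 0.19, adjusted p = 2.1e-04). The members that fell were Atf4, Ddit3, Trib3, Chac1, Asns, Psat1, Psph, Shmt1, Shmt2, Mthfd2, Mthfd1l, Slc7a1, Slc7a3, Slc7a5, Slc3a2, Slc1a5, Cth and Nupr1. Of the 18 that fell, the call was lost without the block for Asns, Mthfd1l, Slc7a1 and Slc3a2 (adjusted p up to 0.093), after centring for Atf4, Asns, Psph, Shmt1, Mthfd1l, Slc7a1, Slc7a3 and Slc3a2 (adjusted p up to 0.57) and in at least 1 fit that left out an array for Asns, Shmt1, Mthfd1l, Slc7a1, Slc7a3 and Slc3a2 (adjusted p up to 0.16). In the amino acid list the counts higher and lower were 1 and 10 after centring.

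Glycolysis and hypoxia genes fell more often than they rose. Of the 33 members measured, 3 rose and 13 fell, the other 17 were not called, and the median log2 change was -0.32. Pfkp, a phosphofructokinase, had signals of 301, 209 and 195 without LIF and 842, 1137 and 1116 with LIF (log2 change -2.15 ± 0.19, adjusted p = 2.0e-05). Hk2, a hexokinase, read 753, 835 and 791 in the LIF-free arrays and 1436, 1556 and 1292 in the LIF arrays (log2 change -0.85 ± 0.13, adjusted p = 6.8e-04, but 0.064 after centring). Epas1, the hypoxia factor HIF-2 alpha, gave signals of 195, 137 and 121 in LIF-free arrays, against 421, 418 and 325 in LIF arrays (log2 change -1.38 ± 0.19, adjusted p = 2.4e-04). None of these overlapped. Pfkfb3, which makes the activator of phosphofructokinase, rose (log2 change 1.00 ± 0.15, adjusted p = 5.2e-04). In addition, Ldhb (log2 change -0.97 ± 0.17, adjusted p = 0.0014, but 0.052 without the block) and Pkm (log2 change -0.60 ± 0.18, adjusted p = 0.033, but 0.096 without the block, 0.16 after centring and up to 0.19 in 3 of the 6 fits that left out an array), enzymes of lactate and pyruvate, fell. In the glycolysis list the counts higher and lower were 1 and 3 without the block, 3 and 5 after centring, 2 and 7 with LIF-free replicate 2 left out, 2 and 7 with LIF-free replicate 3 left out and 2 and 8 with LIF replicate 3 left out.

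Calls among respiratory chain genes changed with nearly every choice. The share called was 17.9%, all lower, beside 23.6% of all named genes called and 10.9% lower. Of the 56 members measured, 0 rose and 10 fell, the other 46 were not called, and the median log2 change was -0.15. Cox8a, of complex IV, had signals of 799, 879.9 and 885 without LIF and 1007, 1797 and 1803 with LIF (log2 change -0.80 ± 0.14, adjusted p = 0.0019, but 0.061 after centring). Ndufa6, of complex I, read 844, 907 and 1064 in the LIF-free arrays and 1137, 1544 and 1665 in the LIF arrays (log2 change -0.61 ± 0.12, adjusted p = 0.0025, but 0.17 after centring). Sdhc, of complex II, gave signals of 359, 522 and 425 in LIF-free arrays, against 417, 719 and 1040.3 in LIF arrays (log2 change -0.66 ± 0.17, adjusted p = 0.014, but 0.19 without the block, 0.17 after centring and 0.1 without LIF-free replicate 3). Ndufs1, of complex I, had signals of 631, 548 and 495 without LIF and 756, 733 and 693 with LIF (log2 change -0.39 ± 0.11, adjusted p = 0.021, but 0.052 without the block, 0.58 after centring and up to 0.13 in 3 of the 6 fits that left out an array). Changes were under 2-fold in all 4, and Sdhc overlapped between conditions. In the respiratory list the counts higher and lower were 0 and 2 without the block, 0 and 0 after centring, 0 and 4 with LIF-free replicate 2 left out, 0 and 2 with LIF-free replicate 3 left out, 0 and 16 with LIF replicate 1 left out, 0 and 4 with LIF replicate 2 left out and 0 and 6 with LIF replicate 3 left out.

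Cholesterol and lipid genes moved both ways, 12.9% higher and 16.1% lower, beside 12.7% and 10.9% of all named genes. Of the 31 members measured, 4 rose and 5 fell, the other 22 were not called, and the median log2 change was -0.03. Abca1 and Abcg1 pass cholesterol to lipoproteins. Abca1 read 100.4, 84.9 and 49.7 in the LIF-free arrays and 261, 271 and 199 in the LIF arrays (log2 change -1.69 ± 0.18, adjusted p = 6.9e-05, median over its 3 tested probe sets -1.10). Abcg1 gave signals of 74.2, 86.4 and 112 in LIF-free arrays, against 125, 175 and 207 in LIF arrays (log2 change -0.89 ± 0.16, adjusted p = 0.0015). Scd1, the desaturase of fatty acids, had signals of 281, 301 and 275 without LIF and 387, 518 and 741 with LIF (log2 change -0.89 ± 0.17, adjusted p = 0.0026). These did not overlap. Apoc1, an apolipoprotein, did overlap and read 163, 186 and 256 in the LIF-free arrays and 244, 403 and 389 in the LIF arrays (log2 change -0.77 ± 0.14, adjusted p = 0.0019, but 0.11 without the block and 0.12 after centring). In the cholesterol list the counts higher and lower were 1 and 3 without the block, 3 and 3 after centring, 2 and 5 with LIF-free replicate 1 left out, 2 and 5 with LIF-free replicate 2 left out, 1 and 5 with LIF-free replicate 3 left out and 2 and 6 with LIF replicate 2 left out.

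Glutathione genes fell more often than they rose. Of the 33 members measured, 4 rose and 11 fell, the other 18 were not called, and the median log2 change was -0.21. Gsta4, Gstp1 and Gstt1 are transferases that join glutathione to reactive compounds. Gsta4 gave signals of 1236, 1440.2 and 1750.2 in LIF-free arrays, against 2545, 3160.4 and 3619 in LIF arrays (log2 change -1.07 ± 0.13, adjusted p = 1.2e-04). Gstp1 had signals of 396, 452 and 511 without LIF and 684, 896 and 999.8 with LIF (log2 change -0.91 ± 0.11, adjusted p = 1.4e-04). Gstt1 read 33.9, 49.01 and 74.7 in the LIF-free arrays and 108, 138 and 177 in the LIF arrays (log2 change -1.47 ± 0.20, adjusted p = 2.9e-04). All 3 fell without overlap. Prdx4, a peroxidase of the endoplasmic reticulum, rose (log2 change 0.91 ± 0.13, adjusted p = 3.2e-04). In the glutathione list the counts higher and lower were 1 and 6 without the block, 6 and 4 after centring, 1 and 6 with LIF-free replicate 2 left out, 1 and 8 with LIF-free replicate 3 left out and 1 and 7 with LIF replicate 2 left out.

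Of chaperones 29.0% were called and of lysosomal genes 16.2%, beside 23.6% of all named genes. Of the 31 members measured, 6 rose and 3 fell, the other 22 were not called, and the median log2 change was 0.08. Cryab, a small heat shock protein, gave signals of 1546, 1209 and 1658 in LIF-free arrays, against 628, 428 and 261 in LIF arrays (log2 change 1.82 ± 0.21, adjusted p = 8.9e-05). It did not overlap, and every pair rose more than 2-fold. Dnajb1 rose less (log2 change 0.76 ± 0.16, adjusted p = 0.0042), as did Dnaja1 (log2 change 0.50 ± 0.12, adjusted p = 0.0096, but 0.072 without the block and 0.073 without LIF-free replicate 3), both co-chaperones of Hsp70. Hspa9, the mitochondrial Hsp70, fell (log2 change -0.55 ± 0.12, adjusted p = 0.0078, but 0.27 after centring and 0.056 without LIF-free replicate 3). Among lysosomal genes, of the 37 members measured, 4 rose and 2 fell, the other 31 were not called, and the median log2 change was 0.02. Glb1, the lysosomal galactosidase, fell (log2 change -0.82 ± 0.14, adjusted p = 0.0014, but 0.053 without the block and 0.06 after centring), Cd68, a lysosomal membrane protein, fell (log2 change -0.77 ± 0.14, adjusted p = 0.0015, but 0.32 without the block and 0.061 after centring), Atp6ap1 of the proton pump rose (log2 change 0.52 ± 0.13, adjusted p = 0.011, but 0.075 without LIF-free replicate 3) and Npc2, a cholesterol carrier, rose (log2 change 0.54 ± 0.16, adjusted p = 0.027, but 0.068 without the block and up to 0.11 in 4 of the 6 fits that left out an array). The counts higher and lower for chaperones were 2 and 1 without the block, 5 and 0 after centring, 3 and 3 with LIF-free replicate 1 left out, 3 and 1 with LIF-free replicate 2 left out and 3 and 0 with LIF-free replicate 3 left out. For lysosomal genes they were 1 and 0 without the block, 3 and 0 after centring, 1 and 2 with LIF-free replicate 1 left out, 1 and 3 with LIF-free replicate 2 left out, 0 and 3 with LIF-free replicate 3 left out, 3 and 5 with LIF replicate 1 left out and 2 and 2 with LIF replicate 3 left out.

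Genes of ribosome making fell where they were called. The share called was 21.2%, all lower, beside 23.6% of all named genes called and 10.9% lower. Of the 52 members measured, 0 rose and 11 fell, the other 41 were not called, and the median log2 change was -0.24. Dkc1, which modifies ribosomal RNA, had signals of 765, 948 and 1089.8 without LIF and 1384, 2016 and 1739.5 with LIF (log2 change -0.87 ± 0.11, adjusted p = 2.0e-04). Nob1, which trims it, read 191, 268 and 227 in the LIF-free arrays and 356, 426 and 404 in the LIF arrays (log2 change -0.80 ± 0.13, adjusted p = 6.9e-04, but 0.079 after centring). Nolc1 and Noc2l, nucleolar assembly factors, fell by less than 2-fold (log2 change -0.59 ± 0.11, adjusted p = 0.0028, but 0.22 after centring for Nolc1 and log2 change -0.94 ± 0.19, adjusted p = 0.0033 for Noc2l). The LIF-free values of Dkc1 and Nob1 lay below all LIF values. In the nucleolar list the counts higher and lower were 0 and 6 without the block, 0 and 2 after centring, 0 and 5 with LIF-free replicate 2 left out, 0 and 5 with LIF-free replicate 3 left out and 0 and 6 with LIF replicate 2 left out.

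Of cytosolic ribosomal protein genes 12.8% were called, beside 23.6% of all named genes. Of the 39 members measured, 0 rose and 5 fell, the other 34 were not called, and the median log2 change was -0.07. Rpl12 gave signals of 226, 171 and 122 in LIF-free arrays, against 469, 658 and 447 in LIF arrays (log2 change -1.63 ± 0.19, adjusted p = 1.0e-04). Rps25 had signals of 179, 165 and 164 without LIF and 328, 366 and 298 with LIF (log2 change -0.96 ± 0.13, adjusted p = 3.3e-04). Both fell without overlap, and Rps27 fell too (log2 change -1.29 ± 0.29, adjusted p = 0.007, but 0.054 without the block and 0.051 without LIF replicate 2). Rps24 overlapped between conditions and its probe sets differed (log2 change -1.37 ± 0.20, adjusted p = 4.7e-04, but 0.11 without the block, median over its 6 tested probe sets -0.23). Ribosomal protein genes have many near-identical pseudogenes, so these probe sets may read several copies. In the ribosomal protein list the counts higher and lower were 0 and 2 without the block, 1 and 9 with LIF replicate 1 left out and 0 and 3 with LIF replicate 2 left out.

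DNA replication genes showed small falls that other choices removed. The share called was 22.2%, all lower, beside 23.6% of all named genes called and 10.9% lower. Of the 45 members measured, 0 rose and 10 fell, the other 35 were not called, and the median log2 change was -0.21. Mcm3, of the replicative helicase, read 444, 449 and 461 in the LIF-free arrays and 526, 722 and 771 in the LIF arrays (log2 change -0.56 ± 0.13, adjusted p = 0.0077, but 0.063 without the block, 0.28 after centring and up to 0.058 in 2 of the 6 fits that left out an array). Pola1, of the primase complex, gave signals of 332, 312 and 272 in LIF-free arrays, against 653, 353 and 461 in LIF arrays (log2 change -0.64 ± 0.15, adjusted p = 0.0089, but 0.074 without the block, 0.23 after centring and 0.065 without LIF-free replicate 3). Pold2, of polymerase delta, had signals of 326, 437 and 447 without LIF and 418, 702 and 1312 with LIF (log2 change -0.87 ± 0.18, adjusted p = 0.005, but 0.12 without the block). Rfc5, of the clamp loader, read 736, 891 and 1034 in the LIF-free arrays and 947, 1189 and 1412 in the LIF arrays (log2 change -0.41 ± 0.10, adjusted p = 0.011, but 0.2 without the block, 0.5 after centring and up to 0.056 in 2 of the 6 fits that left out an array). Pold2 and Rfc5 overlapped between conditions. In the replication list the counts higher and lower were 0 and 1 without the block, 0 and 1 after centring, 0 and 5 with LIF-free replicate 1 left out, 1 and 2 with LIF-free replicate 2 left out, 0 and 1 with LIF-free replicate 3 left out and 0 and 6 with LIF replicate 2 left out.

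Of cell cycle regulators 25.9% were called, beside 23.6% of all named genes. Of the 54 members measured, 6 rose and 8 fell, the other 40 were not called, and the median log2 change was -0.14. Cdkn1c, the cyclin-dependent kinase inhibitor p57, gave signals of 809, 796 and 590.4 in LIF-free arrays, against 249, 109 and 159.9 in LIF arrays (log2 change 2.15 ± 0.21, adjusted p = 3.1e-05). Ccne1, the cyclin that starts S phase, had signals of 181, 154 and 162 without LIF and 293, 341 and 337 with LIF (log2 change -0.97 ± 0.14, adjusted p = 3.5e-04). Both were clear of overlap. Ccnd2, a cyclin of G1, rose (log2 change 1.36 ± 0.25, adjusted p = 0.0023, but 0.063 without the block) with values that overlapped, and Bub1b, of the spindle checkpoint, fell (log2 change -0.68 ± 0.13, adjusted p = 0.0021, but 0.14 after centring). In addition, Cdkn1b, the inhibitor p27, fell (log2 change -0.91 ± 0.19, adjusted p = 0.0044, but 0.083 without the block). In the mitosis list the counts higher and lower were 3 and 4 without the block, 6 and 3 after centring, 4 and 5 with LIF-free replicate 2 left out and 4 and 4 with LIF-free replicate 3 left out.

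Targets of p53 and genes of cell death moved both ways. Of the 36 members measured, 6 rose and 6 fell, the other 24 were not called, and the median log2 change was 0.07. Perp, a p53 target that is also a desmosome protein, read 684, 631 and 533 in the LIF-free arrays and 408, 325 and 215 in the LIF arrays (log2 change 1.00 ± 0.14, adjusted p = 3.1e-04). Bcl2l11, the death promoter BIM, gave signals of 872, 985 and 764 in LIF-free arrays, against 593, 497 and 253 in LIF arrays (log2 change 1.05 ± 0.19, adjusted p = 0.0016). Both rose without overlap. Bid, another death promoter, fell (log2 change -0.70 ± 0.14, adjusted p = 0.0042, but 0.096 after centring), and Plk2, a p53-induced kinase, rose with overlapping values (log2 change 0.56 ± 0.12, adjusted p = 0.0061, but 0.12 without the block). In the p53 list the counts higher and lower were 2 and 2 without the block, 5 and 0 after centring, 5 and 3 with LIF-free replicate 1 left out, 4 and 2 with LIF-free replicate 2 left out, 4 and 2 with LIF-free replicate 3 left out and 6 and 3 with LIF replicate 2 left out.

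Interferon-stimulated genes rose in large part. Of the 39 members measured, 18 rose and 3 fell, the other 18 were not called, and the median log2 change was 0.69. Gbp2 and Gbp3 are GTPases induced by interferon. Gbp2 had signals of 627, 614 and 836 without LIF and 247, 102 and 90.03 with LIF (log2 change 2.38 ± 0.35, adjusted p = 4.3e-04). Gbp3 read 56.6, 72.1 and 53.6 in the LIF-free arrays and 29.8, 14.8 and 10.5 in the LIF arrays (log2 change 1.86 ± 0.36, adjusted p = 0.003). Usp18, which removes the ubiquitin-like protein ISG15, gave signals of 160.4, 223 and 228 in LIF-free arrays, against 75.7, 5.80 and 13.6 in LIF arrays (log2 change 3.47 ± 0.66, adjusted p = 0.0026). All 3 rose without overlap, and their LIF values were highest in replicate 1. Xaf1, an interferon-induced promoter of cell death, moved the other way and had signals of 127, 108 and 102 without LIF and 265, 232 and 329 with LIF (log2 change -1.28 ± 0.21, adjusted p = 8.0e-04, median over its 2 tested probe sets -1.78). The members that rose were Isg20, Ifit1, Ifit2, Ifit3, Usp18, Rtp4, Oas1a, Oasl2, Gbp2, Gbp3, Igtp, Irgm1, Ifi27, Ifi35, Ddx58, Eif2ak2, Bst2 and Ifnar1, and those that fell were Ifitm2, Trim25 and Xaf1. Of the 18 that rose, the call was lost without the block for Ifit2, Oas1a, Ifi27, Eif2ak2, Bst2 and Ifnar1 (adjusted p up to 0.085) and in at least 1 fit that left out an array for Isg20, Ifit1, Ifit2, Ifit3, Rtp4, Oas1a, Irgm1, Ifi27, Eif2ak2, Bst2 and Ifnar1 (adjusted p up to 0.18). Of the 3 that fell, the call was lost without the block for Ifitm2 and Trim25 (adjusted p up to 0.17), after centring for Ifitm2 and Trim25 (adjusted p up to 0.52) and in at least 1 fit that left out an array for Ifitm2 and Trim25 (adjusted p up to 0.096). In the interferon list the counts higher and lower were 12 and 1 without the block, 9 and 2 with LIF-free replicate 2 left out, 8 and 2 with LIF-free replicate 3 left out and 10 and 3 with LIF replicate 2 left out.

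Genes of class I antigen presentation also rose more often than they fell. Of the 17 members measured, 8 rose and 1 fell, the other 8 were not called, and the median log2 change was 0.85. Psmb8, a subunit of the immunoproteasome that cuts peptides, read 92.1, 86.9 and 129 in the LIF-free arrays and 32.6, 5.46 and 7.62 in the LIF arrays (log2 change 3.19 ± 0.50, adjusted p = 7.2e-04). Tapbp, tapasin, which loads peptides onto class I molecules, gave signals of 694, 771 and 842 in LIF-free arrays, against 289, 162 and 255 in LIF arrays (log2 change 1.75 ± 0.23, adjusted p = 2.2e-04). B2m, the light chain of class I molecules, had signals of 1315, 1397 and 1853 without LIF and 746, 535 and 505 with LIF (log2 change 1.36 ± 0.17, adjusted p = 1.9e-04). In all 3 genes each LIF-free array exceeded each LIF array. In addition, the heavy chain H2-K1 read 414, 497 and 581 in the LIF-free arrays and 277, 221 and 286 in the LIF arrays (log2 change 0.92 ± 0.15, adjusted p = 0.001), though class I heavy chains are near-identical copies whose probe sets may read each other. Cd1d1, which presents lipids, fell (log2 change -1.51 ± 0.25, adjusted p = 0.001).

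Promoters of genes that rose in these 2 lists are shown for the interferon response element. This motif, GAAA, then any 2 bases, then GAAA, was searched on both strands of the same RefSeq windows and occurred in 3.4% of tested genes, in 5.15% of those that rose, in 2.73% of those that fell and in 3.44% of all windows. It occurred in 16 of 32 measured interferon-stimulated genes with a window (50%) and in 10 of the 15 that rose, while of the 8 class I genes that rose it occurred in 3. The interferon list was made of genes known to answer interferon, so its share is a description. The stretches below lie at chr3:142620564-142620653, chr3:142559959-142560043 and chr2:122147508-122147597, all on the plus strand of GRCm38.p6, with the matches in capitals. The Gbp2 and Gbp3 matches lie on the opposite strand and read TTTC first, and Gbp3 has 2 that overlap.
Gbp2: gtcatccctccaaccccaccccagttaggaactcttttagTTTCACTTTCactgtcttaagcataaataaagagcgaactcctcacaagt
Gbp3: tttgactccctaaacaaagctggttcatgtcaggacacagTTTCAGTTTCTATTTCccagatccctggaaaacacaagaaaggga
B2m: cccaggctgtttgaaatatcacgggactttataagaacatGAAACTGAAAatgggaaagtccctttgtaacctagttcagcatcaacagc
The first match begins at base -59 from the start of Gbp2, at base -45 in Gbp3 and at base -139 in B2m. In Psmb8 and Tapbp these letters were not found in the window.

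Imprinted genes, expressed from the allele of a single parent, rose with few exceptions among the calls. Of the 36 members measured, 17 rose and 1 fell, the other 18 were not called, and the median log2 change was 0.39. Peg3, a zinc finger gene of the paternal allele, gave signals of 2319, 1659.9 and 1183 in LIF-free arrays, against 819, 236 and 219.8 in LIF arrays (log2 change 2.25 ± 0.20, adjusted p = 2.0e-05). Peg10, a paternal gene of the placenta derived from a retrotransposon, had signals of 133, 124 and 68.5 without LIF and 36.8, 19.06 and 22.8 with LIF (log2 change 2.05 ± 0.23, adjusted p = 8.9e-05). Together with Igf2 and Cdkn1c, given in this section, these had the smallest p of the list and did not overlap between conditions. In addition, the paternal genes Mest (log2 change 1.39 ± 0.21, adjusted p = 5.5e-04) and Ndn (log2 change 1.42 ± 0.23, adjusted p = 8.3e-04) and the maternal gene Phlda2 (log2 change 1.03 ± 0.20, adjusted p = 0.0034) rose as well. Genes of both parental classes rose: paternal Igf2, Peg3, Peg10, Mest and Ndn, and maternal Cdkn1c and Phlda2. The arrays do not tell the alleles apart. In the imprinted list the counts higher and lower were 10 and 0 without the block.

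The list of Zscan4, 2-cell and germ cell genes gave the largest downward median of the 37 lists. No Zscan4 gene was among its called members, so the falls below do not describe those genes. Of the 37 members measured, 2 rose and 20 fell, the other 15 were not called, and the median log2 change was -1.15. Ooep, a protein of the egg's subcortical complex, read 195, 179 and 286 in the LIF-free arrays and 672, 889 and 1249 in the LIF arrays (log2 change -2.07 ± 0.13, adjusted p = 1.7e-06). Khdc3, of the same complex, gave signals of 28.6, 23.9 and 44.04 in LIF-free arrays, against 124, 143 and 210.5 in LIF arrays (log2 change -2.32 ± 0.24, adjusted p = 5.2e-05). Mael, which silences transposons through small RNAs, had signals of 14.7, 32.9 and 30.9 without LIF and 79.5, 173 and 147 with LIF (log2 change -2.36 ± 0.19, adjusted p = 1.4e-05). In these 3 genes every LIF-free array lay below the lowest LIF array. Tex14, of the bridges between germ cells, read 47.4, 58.7 and 58.9 in the LIF-free arrays and 135, 171 and 165 in the LIF arrays (log2 change -1.51 ± 0.15, adjusted p = 3.2e-05). In addition, Dazl, a translation factor of germ cells, gave signals of 5.49, 3.44 and 8.72 in LIF-free arrays, against 41.3, 84.6 and 29.4 in LIF arrays (log2 change -3.09 ± 0.46, adjusted p = 4.9e-04), and Sycp3, of the meiotic chromosome axis, fell (log2 change -1.26 ± 0.26, adjusted p = 0.0039, but 0.092 without the block). The members that rose were the homeodomain genes Rhox6 (log2 change 1.71 ± 0.26, adjusted p = 5.4e-04) and Rhox9 (log2 change 1.13 ± 0.23, adjusted p = 0.0039, but 0.051 without the block), expressed in placenta and gonads. Besides those, the members that fell included Dppa2, Dppa4, Ddx4, Stk31, Stag3, Smc1b, Dmc1, Mov10l1, Piwil2, Hormad1, Taf7l, Prdm14 and Tcl1. Of the 20 that fell, the call was lost without the block for Sycp3, Smc1b, Mov10l1, Taf7l and Prdm14 (adjusted p up to 0.24), after centring for Dppa4, Taf7l and Prdm14 (adjusted p up to 0.32) and in at least 1 fit that left out an array for Dppa4, Mov10l1 and Taf7l (adjusted p up to 0.15).

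The same withdrawal in medium with lithium gave a separate set of 6 arrays, which share no array with the comparison above but carry the same replicate numbers. Both withdrawals were tested in the same fit, with a shared spread and block, so their calls are not independent. There, 5938 probe sets (22%) were called, and 1870 genes rose (14.7%) and 1493 fell (11.7%), 26.4% in all. Of the 3012 genes called without lithium, 2203 were called in the same direction with it, which is 73.1% of the calls without lithium and 65.5% of the 3363 calls with lithium. No gene was called in opposite directions. The sign was shared by 1619 of the 1622 genes that rose and by 1369 of the 1390 that fell. The 1155 genes called with and without the block and with each array left out, without overlap, were also compared. From that set, 621 of 641 that rose and 472 of 514 that fell were called with lithium as well.

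The median size of change in the genes that rose was 0.87 without lithium and 0.85 with it, and in those that fell 0.89 and 0.77. The difference between the withdrawals, tested as an interaction in limma, passed the threshold for 0 of 27022 probe sets, with a smallest adjusted p of 0.81, while 1604 (5.94%) had an unadjusted p under 0.05. Among the gene lists, 28 actin members rose and 0 fell with lithium, 24 epithelial members rose and 1 fell, and 9 class I members rose and 1 fell. The interferon list had 21 higher and 3 lower with lithium, the imprinted list 15 and 1, the ATF4 list 2 and 21, and the germ cell list 2 and 22. Other lists had medians of the other sign with lithium: Notch (0.33), cytokine receptors (0.074), ribosomal proteins (0.15), activin signalling (0.20), chaperones (-0.0075) and histone variants (-0.0043). The median of all named genes was 0.066 with lithium. Septin1 and Zfp57, called above, were not called with lithium, and for neither did the difference pass (adjusted p = 0.81 for each interaction).

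**Figure D5:**
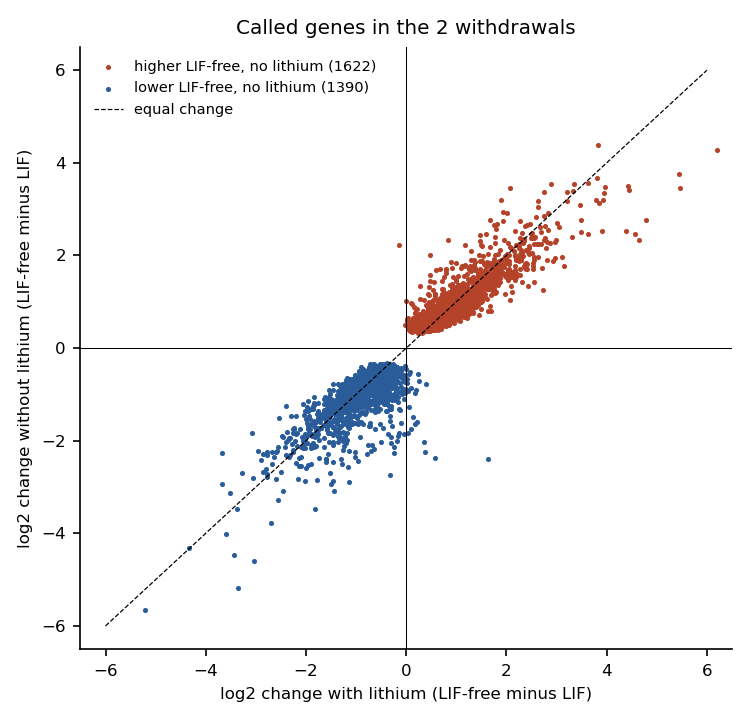
Log2 change on withdrawal without lithium (vertical) against the change with lithium (horizontal), each LIF-free minus LIF, for the 3012 genes called without lithium. The points that rose and those that fell lie in opposite quadrants around the dashed line of equal change, with 3 of 1622 and 21 of 1390 on the other side of 0.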

How the data were processed

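Total RNA was measured on Affymetrix mouse arrays, 6 of this comparison (3 LIF-free, 3 LIF) and 6 of cells in medium with lithium. The authors deposited a MAS5 intensity (signal, not log-transformed) for each probe set; the submitters' processing notes name MAS5, and its version and settings are not given in the sources used here. Every array had a mean of 100 after trimming 2% of values at each end, the mark of scaling to a common target. The number of arrays, 3 per condition, limits the precision: the median half-width of the 95% interval of a log2 change was 0.51.

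From the 45101 probe sets, 64 controls were left out, signals under 1 were set to 1 (0.146% of tested values), log2 was taken, and 27022 probe sets whose mean over the 12 arrays exceeded the 40th percentile (signal 7.52) were tested. In limma 3.58.1 (R 4.3.3), lmFit took 4 condition means and the replicate number as a block over all 12 arrays, leaving 6 residual degrees of freedom, and eBayes used an intensity trend. Two-sided p-values had a Benjamini-Hochberg adjustment across the 27022 probe sets, with a threshold of 0.05. The 3 comparisons were withdrawal without lithium, withdrawal with lithium, and their difference. The labels give equal replicate numbers in both conditions, and the rule that defines this comparison takes them as pairs. Same-numbered arrays deviated together from their condition means (residual correlations 0.438, 0.137 and 0.339). Between arrays of unlike numbers the correlations ran from -0.37 to 0.046. Deviations within a condition sum to 0, so high values for equal numbers force low ones for unlike numbers, and the contrast is no test of the pairing. The fit was tested on simulated data.

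Symbols came from the platform annotation (34945 probe sets with 1 symbol, 932 with several, 9160 with none; 34741 matched a RefSeq gene ID and 0 symbols changed). A gene is its brightest tested probe set with 1 symbol, with _x_at and _s_at sets used only where it had no other. In 15 of 6042 genes with at least 2 tested sets, sets were called in opposite directions. The genes named are the 15 largest rises and falls under the conditions stated in the report, up to 4 called members of each list by smallest p (all 3 pairs the same way, signal at least 50 in the higher condition, or the member with the smallest p where none passes), and Klf4, Socs3, Inhbb, Cyp26a1, Krt18, Pou5f1, Nanog and Sox2. The members of the 37 lists and these rules were chosen with earlier results of these data known. A further gene list is not reported here. Alternatives were no block, quantile normalisation, median centring, a pseudocount of 16, no filter, a 60th percentile filter, only the 6 compared arrays, no intensity trend, the median over a gene's probe sets, and leaving out each array. Plots were drawn with matplotlib 3.10.9 in Python 3.11.15.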

Additional observations from a re-analysis of the deposited data

How the results depend on the processing

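The number of called probe sets depended most on the replicate block and on single arrays. Against 5260 called (2714 higher, 2546 lower), no block gave 2515 (1458 higher, 1057 lower), and a lithium comparison of 5938 gave 3368. Leaving out 1 array gave 2805 to 5450 called, with 1478 to 2792 higher and 1327 to 2658 lower. The fewest came with LIF-free replicate 3 left out, while leaving out LIF-free replicate 2 gave 2916 and LIF replicate 2 gave 3375. Median centring gave 1032 lower. The other settings gave 3709 to 5609 called. The interaction gave 0 calls with and without the block, under both scalings and with the 60th percentile filter. Of 204 named genes, none changed direction in any fit. Taking the median over a gene's tested probe sets, the log2 change counted as moved for 18 of them and as the same for 186. Calls were lost for 42 without the block, for 31 after centring, for 13 without the trend, for 10 with the 6 arrays alone, for 8 without a filter and for 23 without LIF-free replicate 3. List medians changed sign after centring for activin signalling (0.16), the respiratory chain (0.041), cholesterol genes (0.17), ribosomal proteins (0.12) and mitosis (0.049), and with the 60th percentile filter for activin signalling (0.20), Notch (0.052) and cadherins (-0.084). For these changes the cause was not tested. Counts of list members with each array left out were added after seeing the data. Without the block, 18 of 25 actin members, 17 of 22 epithelial members and 10 of 17 imprinted members that rose, and 14 of 18 ATF4 members and 15 of 20 germ cell members that fell, were still called. Dim probe sets limit the rest. Where an array lay under the filter signal of 7.52, the size of a log2 change rests partly on values near background. Through LIF values, genes that rose with this limit included Fgf5, Aplnr, Rspo3, Usp18, Psmb8, Fgf8, Cdh11, Cd44, Cxcl12 and Col1a1. Through LIF-free values, genes that fell with it included Inhbb, Etv4, Vax2, A2m and Dazl.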
